A study of Homo sapiens with 63 samples.

Results

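RNA was measured at 12 h in HEK293T cells that had received photocaged ibuprofen and in DMSO controls of the same time. HEK293T is an established human embryonic kidney line, here expressing the Halo protein tag. The comparison takes 6 of the 63 libraries of the study, chosen by their labels alone: 3 photocaged ibuprofen 12 h libraries and 3 DMSO 12 h libraries, described over all genes. Per the labels, cells were loaded for 2 h with 10 µM of a Halo-binding precursor of the acyl glucuronide of ibuprofen or of ibufenac. Unbound compound was washed out, and light (365 nm, 5 mW/cm2, 3 min) then freed the glucuronide. The labels do not say which arms were lit, whether the DMSO cells were lit, or what dose the bolus arm received. They also do not say whether replicates were separate cultures, so the p-values measure the spread between these libraries, which may be technical. The same pair of arms at 6 h and 18 h, photocaged ibufenac at 12 h and ibuprofen given as a bolus at 12 h, each with 3 libraries, are used where they show how the 12 h comparison differs.

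Ibuprofen is a carboxylic acid drug that blocks the cyclooxygenases. Its carboxyl group can be joined to glucuronic acid, which gives an acyl glucuronide, and such conjugates can react with proteins. Cells answer reactive compounds through the transcription factor NRF2, which is held back by KEAP1 until its cysteines are modified, and answer amino acid shortage and other stress through ATF4. The hypoxia-inducible factors (HIF) switch on glycolysis and mitophagy genes when prolyl hydroxylases are not active. SR proteins, their kinases and the hnRNP proteins choose splice sites, and several of them regulate the splicing of their own transcripts.

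The 6 libraries held 19.2 to 22.6 M counts, and levels are given as CPM, each library's counts scaled to one common total with TMM factors. Summed levels of 8 transcripts usual for HEK293T cells, among them VIM and LIN28B, were 633 to 687 CPM with photocaged ibuprofen and 629 to 668 CPM with DMSO. Of 12 hepatocyte markers 3 passed the filter on low counts, and their list summed to 7.42 to 9.56 CPM against 9.64 to 11.1 CPM. The groups differed in composition. Protein-coding genes took 74.5%, 72.8% and 72.5% of the counts with photocaged ibuprofen and 76.5%, 79.3% and 79.1% with DMSO (exact permutation p = 0.1, two-sided, the smallest that 3 against 3 can give). A list of abundant noncoding RNAs took 22.1%, 23.2% and 23.5% against 19.8%, 17.2% and 17.4% (exact permutation p = 0.1). RN7SL1, RN7SL2 and RN7SK, the RNAs of the signal recognition particle and of the 7SK particle, made up most of that list, and none of its 12 tested members passed the test. The part of this shift in the gene results below was not tested.

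At 12 h, 112 genes fell and 19 rose with photocaged ibuprofen. OGT (the O-GlcNAc transferase) had the lowest p-value and RARB (retinoic acid receptor beta) the largest fall. The falls also took in KDM3A (a histone demethylase), PNISR and SRSF5 (splicing proteins) and the glycolytic genes LDHA and PGK1. GNG2, CD109 and NIBAN1 had the largest rises, and HMOX1, the haem oxygenase controlled by NRF2, also rose. Most changes were small: 19 of the 131 were larger than 1.5-fold, and the median change was -0.35 on the log2 scale among the falls and 0.49 among the rises. A gene is said to rise or fall where its p-value from edgeR's quasi-likelihood test, adjusted by Benjamini-Hochberg over the 19352 tested genes, was under 0.05. That held for 0.677% of them, 0.0982% higher and 0.579% lower, and the median of all tested genes was 0.02. In all 131 the 3 photocaged libraries lay wholly above or below the 3 DMSO libraries, which was so in the lower direction for 11.1% of all tested genes and in the higher for 10.9%.

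**Figure D1:**
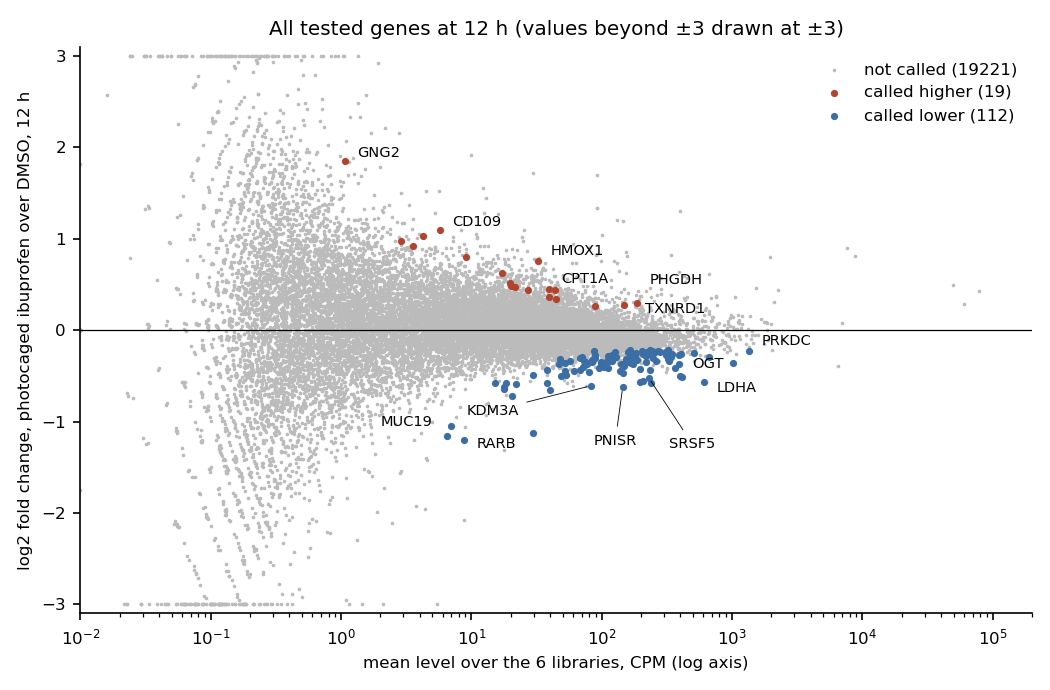
Log2 fold change of photocaged ibuprofen over DMSO at 12 h (vertical axis) against the mean level over the 6 libraries in CPM (horizontal log axis), 1 point per tested gene, with changes beyond -3 or 3 drawn at that edge. The 112 genes called lower are blue and lie mostly between -0.2 and -0.7 at middle to high levels, the 19 called higher are red, and GNG2 at 1.85 and RARB at -1.20 have the largest changes in each direction.

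The number of calls rested on every library. Without DMSO replicate 1, 2 or 3 it was 78, 37 or 29, and without photocaged ibuprofen replicate 1, 2 or 3 it was 34, 38 or 64. Calls on both sides of 0 were found each time, with 5.26% to 15.6% of them higher, against 14.5% with all libraries. The excess of falls did not hold under every choice: without a filter on low counts 457 genes were higher and 207 lower, and with the 6 libraries fitted alone 358 were higher and 371 lower. OGT, SRSF5, PNISR, KDM3A, ZC3H11A, ZRANB2, CCNL1, HNRNPH1 and DDX5 were among the 19 genes called under all 13 alternatives. DESeq2 gave no adjusted p for 12756 of the tested genes, among them 9 of the fallen and 10 of the risen, and called the other 103 and 9. The genes that fell had long transcripts of low GC content, with a median of 5564 bases and 42.9% GC over 104 coding genes, against 3675 bases and 48.7% over all tested coding genes. With trends on GC content and length removed from each library, 81 of the 112 were still called lower and 17 of the 19 higher.

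In the NRF2 target list HMOX1 and TXNRD1 rose. HMOX1 (chromosome 22, 35380361 to 35394214, GRCh38), which opens the haem ring and frees iron and carbon monoxide, was at 39.8, 40.0 and 41.6 CPM with photocaged ibuprofen and at 27.9, 17.4 and 26.6 CPM with DMSO. The groups did not overlap, and DMSO replicate 2 was the lowest of the 6. HMOX1 rose by 0.76 ± 0.15 (log2 fold change ± SE, adjusted p = 0.00446, edgeR). Without DMSO replicate 2 the change was 0.57 and the call was lost (adjusted p = 0.133). TXNRD1, the cytosolic thioredoxin reductase, was at 176, 158 and 157 CPM against 128, 138 and 139 CPM, again without overlap. It rose by 0.28 ± 0.06 (adjusted p = 0.0169), and adjusted p-values ran from 0.0269 to 0.178 when 1 library was left out. The TXNRD1 call was lost without DMSO replicate 1, 2 or 3 or photocaged ibuprofen replicate 1. HMOX1 and TXNRD1 were 2 of 25 tested members and none fell, where 0.0982% of all tested genes rose and 0.579% fell. The list's median was 0.12 against 0.02 over all genes.

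Other NRF2 targets had values on the same side without passing. GCLM, the modifier subunit of the enzyme that starts glutathione synthesis, was at 36.1, 34.8 and 35.1 CPM against 29.4, 26.3 and 28.9 CPM (0.33 ± 0.10, adjusted p = 0.13, edgeR). PIR, an iron-binding nuclear protein, was at 8.67, 9.04 and 6.56 CPM against 4.08, 5.49 and 4.29 CPM (0.81 ± 0.23, adjusted p = 0.0802). SLC7A11, the cystine carrier, overlapped between groups at 81.5, 82.2 and 73.3 CPM against 72.8, 90.9 and 88.4 CPM. NQO1, a quinone reductase often read as an NRF2 marker, was low at 4.12 to 5.04 CPM against 2.90 to 4.47 CPM. Of the 25 members, 9 had all photocaged libraries above all DMSO libraries and 0 had them below, against 10.9% and 11.1% of all tested genes. This was not particular to NRF2 targets. The p53 target list had 9 of 24 above, 0 below and a median of 0.11.

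TXNRD1 is the risen gene of this list whose upstream sequence could be read, and it is shown with matches to the NRF2 core motif. The 250 bases before its first RefSeq start (GRCh38.p14, chr12:104215529-104215778, plus strand) are given in lower case with matches to TGACNNNGC, on either strand, in capitals.
TXNRD1: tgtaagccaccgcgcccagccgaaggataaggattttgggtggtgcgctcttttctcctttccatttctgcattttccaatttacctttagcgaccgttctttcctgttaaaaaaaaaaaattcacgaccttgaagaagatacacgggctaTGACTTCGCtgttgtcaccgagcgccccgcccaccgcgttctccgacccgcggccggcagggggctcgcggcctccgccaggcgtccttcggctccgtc
There was 1 match. The motif was found in 3013 of the 27305 promoters of that length, taking the first entry of each gene, and in 5 of the 19 NRF2 list genes with an entry. A match describes letters only.

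Among ATF4 targets, which serve amino acid supply and one-carbon metabolism, 1 of 31 rose and none fell. Over all tested genes 0.0982% rose and 0.579% fell. PHGDH, the first enzyme of serine synthesis, was at 205, 197 and 214 CPM against 173, 162 and 166 CPM and rose by 0.30 ± 0.08 (adjusted p = 0.0429, edgeR). That call was lost without any 1 library, with adjusted p-values of 0.0658 to 0.233. TRIB3, a pseudokinase induced by ATF4, was at 35.6, 33.1 and 38.3 CPM against 29.5, 26.3 and 27.7 CPM (0.36 ± 0.09, adjusted p = 0.0532). ASNS, asparagine synthetase, was at 144, 134 and 125 CPM against 105, 119 and 113 CPM (0.26 ± 0.07, adjusted p = 0.0657). Of the 31 members, 13 were without overlap on the higher side, against 10.9% of all tested genes. On the lower side 4 were, which is near the 11.1% of all tested genes. DDIT3 (-0.15 ± 0.12) and ATF3 (-0.28 ± 0.11) were among these 4. ATF4 mRNA itself was at 475 to 535 CPM against 487 to 510 CPM. The list's median of 0.19 became 0.07 once GC and length trends were removed.

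CPT1A, which loads long-chain fatty acids for entry into mitochondria and is a PPAR target, rose. It was at 44.4, 48.2 and 43.1 CPM against 34.4, 34.5 and 30.4 CPM (0.45 ± 0.10, adjusted p = 0.015, edgeR), with all photocaged libraries above all DMSO libraries. No other of the 23 tested members of its list of PPAR targets and fatty acid oxidation genes passed, and the median was 0.08. CPT1B, the muscle form, was at 18.0, 12.7 and 15.4 CPM against 21.9, 22.2 and 31.9 CPM (-0.72 ± 0.24, adjusted p = 0.156). The CPT1A call was lost without DMSO replicate 3 or photocaged ibuprofen replicate 1 or 2 (adjusted p up to 0.17).

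The largest rises were in genes at low levels. CD109, a membrane-anchored protein that binds TGF-beta, was at 7.37, 8.09 and 7.78 CPM against 2.99, 3.72 and 4.19 CPM, a rise of 1.09 ± 0.23 (adjusted p = 0.0106, edgeR). GNG2, a G protein gamma subunit, was at 2.09, 1.91 and 1.02 CPM against 0.173, 0.907 and 0.30 CPM. It rose by 1.85 ± 0.45 (adjusted p = 0.0328), but its highest DMSO library was close to its lowest photocaged one, and without 1 library the change ran from 1.45 to 2.81. NIBAN1, a stress-induced regulator of translation, had means of 5.69 and 2.78 CPM (1.03 ± 0.25, adjusted p = 0.0333). CALCB, a calcitonin-family peptide gene, had means of 20.8 and 13.5 CPM (0.63 ± 0.16, adjusted p = 0.0333), and SMAD9, a BMP signal transducer, 23.1 and 16.2 CPM (0.51 ± 0.11, adjusted p = 0.00871). The lysosomal protease gene CTSB (0.36 ± 0.08) and the gamma-secretase gene PSEN2 (0.34 ± 0.08) also rose. Without 1 library the calls of NIBAN1, CALCB and PSEN2 were each lost in 5 of 6 fits, those of GNG2, SMAD9 and CTSB in 4 and that of CD109 in 3. The adjusted p reached 0.273 for NIBAN1, 0.279 for CALCB, 0.234 for GNG2 and 0.0705 for CD109. PARP9 overlaps DTX3L on the other strand, and DMTF1-AS1 overlaps DMTF1, so their reads cannot be told apart where the counting strand is not given. DMTF1-AS1 rose by 0.98 ± 0.24 while DMTF1 fell by 0.38 on the log2 scale, and the PARP9 and DMTF1-AS1 calls were also lost in 5 of 6 fits.

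**Figure D2:**
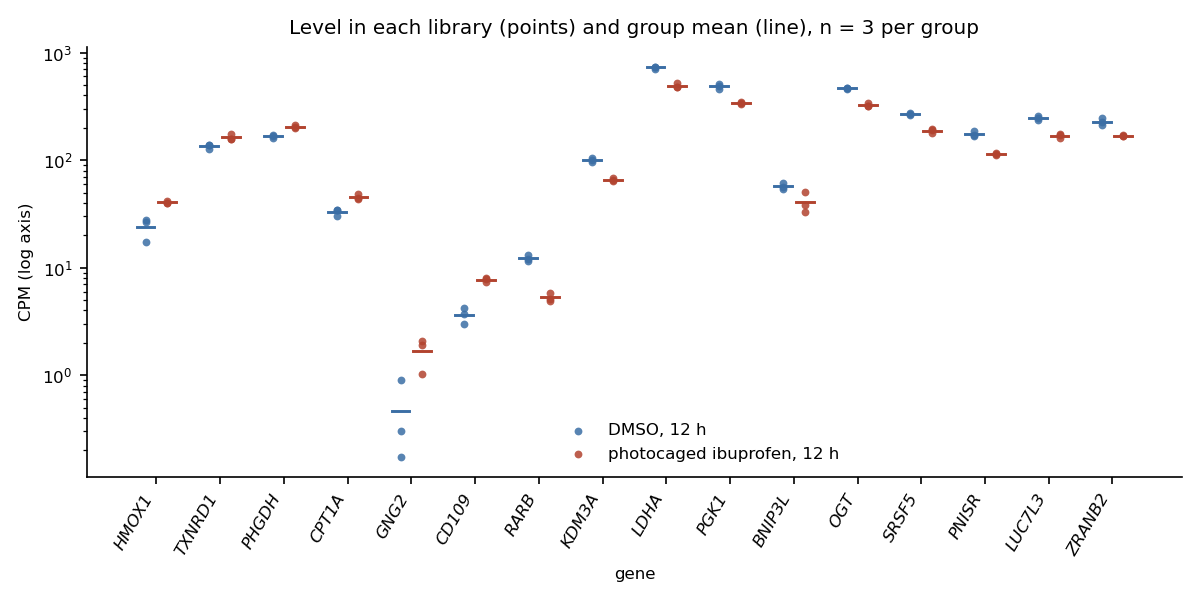
Level of 16 genes in CPM (vertical log axis) in each of the 3 DMSO (blue) and 3 photocaged ibuprofen (red) libraries at 12 h, with a line at each group mean. In none of the 16 do the red and blue points overlap, and the nearest are BNIP3L at 50.5 and 53.5 CPM and GNG2 at 1.02 and 0.907 CPM.

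Hypoxia-inducible genes lay lower as a group, though few passed. Like the other gene lists, theirs was chosen with earlier results of these data known, so the counts are a description. Of 32 tested HIF targets outside glycolysis, KDM3A and BNIP3L fell, none rose, and 22 were without overlap on the lower side against 1 on the higher. Over all tested genes 0.579% fell, and 11.1% were without overlap on the lower side and 10.9% on the higher. The list's median was -0.37, with 28 of 32 below 0. KDM3A, a lysine demethylase of histone H3 (chromosome 2, 86440647 to 86492716, GRCh38), was at 65.3, 68.2 and 63.6 CPM against 95.9, 104 and 100 CPM. It fell by 0.61 ± 0.10 on the log2 scale (adjusted p = 0.000859, edgeR) and passed without any 1 library. BNIP3L, a mitophagy receptor, was at 38.1, 33.0 and 50.5 CPM against 53.5, 61.9 and 56.3 CPM. Its groups were separate but photocaged replicate 3 stood near the DMSO libraries, and it fell by 0.50 ± 0.13 (adjusted p = 0.0446), a call that 5 of the 6 fits without 1 library lost (adjusted p up to 0.304).

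Their relatives carried values of the same size. BNIP3 was at 47.4, 44.1 and 52.1 CPM against 66.3, 73.2 and 80.7 CPM (-0.62 ± 0.19, adjusted p = 0.122, edgeR). VEGFA, the vascular growth factor, was at 59.5, 63.1 and 71.6 CPM against 85.7, 81.3 and 92.7 CPM (-0.42 ± 0.12, adjusted p = 0.072). PPFIA4, a scaffold protein of the liprin family, was at 7.79, 10.7 and 11.9 CPM against 19.9, 18.9 and 16.4 CPM (-0.86 ± 0.24, adjusted p = 0.072). None of these 3 had overlapping groups. With the 6 libraries fitted alone 16 of the 32 were called lower, with DESeq2 8 were, and across all alternatives the number was 1 to 16 and the median -0.41 to -0.29.

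In glycolysis, LDHA, PGK1 and SLC16A1 fell, 3 of 20 tested genes, against 0.579% of all tested genes. None rose, and the list's median was -0.18. LDHA, which turns pyruvate into lactate (chromosome 11, 18394388 to 18408425, GRCh38), was at 479, 480 and 520 CPM against 710, 733 and 742 CPM, with no overlap. It fell by 0.56 ± 0.14 (adjusted p = 0.0333, edgeR). PGK1, phosphoglycerate kinase, was at 339, 335 and 348 CPM against 458, 489 and 506 CPM and fell by 0.51 ± 0.11 (adjusted p = 0.0191). SLC16A1, the lactate carrier MCT1, was at 264, 254 and 251 CPM against 300, 304 and 301 CPM and fell by 0.24 ± 0.06 (adjusted p = 0.0318). All groups were separate, but leaving out any 1 library ended the LDHA and SLC16A1 calls (adjusted p of 0.0628 to 0.156 and of 0.0658 to 0.137). PGK1 stayed called only without DMSO replicate 1. HK2 (-0.55 ± 0.18, adjusted p = 0.155) and the glucose carrier SLC2A3 (-0.84 ± 0.25, adjusted p = 0.0974) did not pass, and GAPDH overlapped at 1761 to 1944 CPM against 1930 to 1997 CPM.

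The upstream sequences of the fallen LDHA, PGK1 and KDM3A are shown because the HIF core motif stands in them in different numbers. Each line gives the 250 bases before the gene's first RefSeq start (GRCh38.p14, plus strand), in lower case with ACGTG or GCGTG on either strand in capitals. The windows are chr11:18394313-18394562 for LDHA, chrX:78103998-78104247 for PGK1 and chr2:86441121-86441370 for KDM3A. The GENCODE spans of LDHA and KDM3A begin before the ends of these windows, since the RefSeq starts lie further in.
LDHA: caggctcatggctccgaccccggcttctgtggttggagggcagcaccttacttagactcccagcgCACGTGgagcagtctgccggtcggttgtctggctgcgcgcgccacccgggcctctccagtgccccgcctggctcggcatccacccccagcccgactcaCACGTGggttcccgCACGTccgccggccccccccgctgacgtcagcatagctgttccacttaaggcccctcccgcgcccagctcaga
PGK1: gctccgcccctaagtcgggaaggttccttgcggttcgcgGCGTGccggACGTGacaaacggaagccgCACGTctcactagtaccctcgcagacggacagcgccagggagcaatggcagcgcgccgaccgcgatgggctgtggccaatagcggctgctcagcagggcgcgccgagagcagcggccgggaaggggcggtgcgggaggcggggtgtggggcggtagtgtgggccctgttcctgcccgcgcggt
KDM3A: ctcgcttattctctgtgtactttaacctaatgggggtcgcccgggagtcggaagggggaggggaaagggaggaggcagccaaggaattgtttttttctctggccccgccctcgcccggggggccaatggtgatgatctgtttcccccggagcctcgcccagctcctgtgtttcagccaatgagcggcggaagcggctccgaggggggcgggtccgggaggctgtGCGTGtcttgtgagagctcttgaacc
LDHA held 5 matches, PGK1 3 and KDM3A 1, and matches on opposite strands that share bases, as in cacgtg, were counted separately. ACGTG or GCGTG was found in 43.1% of all promoters of this length, in 32 of the 46 HIF and glycolysis list genes with an entry (69.6%), and in 53 of the 86 fallen genes with an entry (61.6%). Of the 15 risen genes with an entry, 7 held ACGTG or GCGTG (46.7%). ACGTG alone was found in 18.7% of all promoters and 52.2% of those list genes. It was found in 29.1% of the fallen and 26.7% of the risen genes with an entry. These are counts of letters, not of bound sites.

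OGT, the single enzyme that places N-acetylglucosamine on nuclear and cytosolic proteins, had the lowest p-value of the comparison. It lies on chromosome X at 71533083 to 71575897 (GRCh38). Its level was 321, 338 and 321 CPM against 456, 464 and 471 CPM, and the gap between the groups was many times the spread within them. It fell by 0.51 ± 0.06 (adjusted p = 4.42e-06, edgeR), with adjusted p-values of 4.53e-05 to 0.000395 without 1 library. OGA, which removes the same sugar, was at 172, 187 and 175 CPM against 200, 204 and 198 CPM (-0.17 ± 0.06, adjusted p = 0.236).

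Genes of splicing regulation were many among the falls. Their lists were written after the values had been seen, so the counts describe and support nothing. Of 71 tested genes in 6 lists, 14 fell, none rose, and the median was -0.19. Over all tested genes 0.579% fell and 0.0982% rose. Among SR proteins SRSF5, TRA2A and SRSF11 fell, 3 of 14. SRSF5 was at 179, 189 and 196 CPM against 269, 264 and 276 CPM (-0.52 ± 0.08, adjusted p = 8.62e-05, edgeR), and its groups were far apart. TRA2A (-0.38 ± 0.09) and SRSF11 (-0.31 ± 0.08) lost their calls without any 1 library (adjusted p of 0.052 to 0.234 and of 0.0518 to 0.184).

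Among 21 SR-related proteins 7 fell, against 0.579% of all tested genes: PNISR, ZRANB2, SREK1, NKTR, U2SURP, ACIN1 and THRAP3. SREK1, ACIN1 and THRAP3 lost their calls without any 1 library (adjusted p up to 0.171, 0.172 and 0.16, edgeR). NKTR stayed called only without photocaged ibuprofen replicate 2, and U2SURP only without DMSO replicate 1 (adjusted p up to 0.196 and 0.231). PNISR, a nuclear-speckle protein, was at 111, 116 and 115 CPM against 168, 173 and 185 CPM (-0.62 ± 0.10, adjusted p = 0.000859, edgeR). ZRANB2, a zinc-finger splicing protein, was at 172, 166 and 168 CPM against 210, 226 and 245 CPM (-0.43 ± 0.07, adjusted p = 0.00104). Both were separate from DMSO and passed without any 1 library. CLK2, a kinase that phosphorylates SR proteins, fell by 0.49 ± 0.10 (adjusted p = 0.0113) and was the only 1 of 7 SR protein kinases called. LUC7L3, a U1 snRNP factor, was at 162, 170 and 174 CPM against 237, 248 and 259 CPM and fell by 0.56 ± 0.12 (adjusted p = 0.00826). CCNL1, a cyclin tied to splicing, fell by 0.41 ± 0.07 (adjusted p = 0.00113), and HNRNPH1, 1 of 20 hnRNP genes called, fell by 0.36 ± 0.07 (adjusted p = 0.0025). CLK2 was not called without DMSO replicate 2 or photocaged ibuprofen replicate 2, nor LUC7L3 without DMSO replicate 3 or photocaged ibuprofen replicate 1 (adjusted p up to 0.138 and 0.072). With GC and length trends removed 11 of the 71 were called lower, and over all alternatives 6 to 29.

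**Figure D3:**
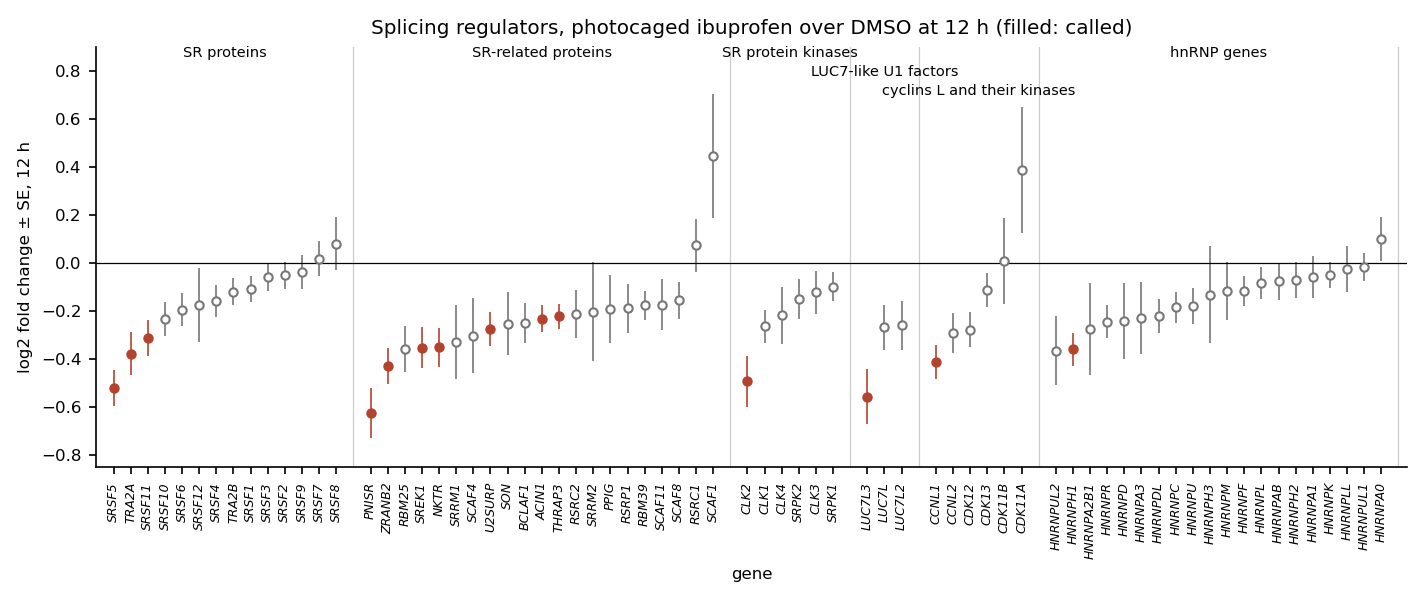
Log2 fold change ± SE at 12 h (vertical axis) for splicing regulators with a group mean of at least 1 CPM, ordered within each list, with called genes filled red. Nearly all points lie below 0, PNISR is the lowest at -0.62, and SCAF1 and CDK11A, which did not pass, are the highest.

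RARB had the largest fall of any called gene. This retinoic acid receptor gene (chromosome 3, 25174332 to 25597932, GRCh38) was at 4.92, 5.12 and 5.85 CPM against 11.5, 12.0 and 13 CPM. It fell by 1.20 ± 0.23 (adjusted p = 0.00395, edgeR) and was called without each library in turn, with adjusted p-values of 0.0117 to 0.05. DESeq2 gave it no adjusted p. The other 17 tested retinoic acid genes did not pass, RARA being at 10.6, 13.9 and 19.0 CPM against 14.9, 12.8 and 13 CPM. RARB overlaps TOP2B on the opposite strand, a gene with a far higher level that changed by -0.21 ± 0.08 (adjusted p = 0.209).

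The rest of the falls covered several functions. For the counts that follow, 0.579% of all tested genes fell. CCNE2 (-0.37 ± 0.09) and POLA1 (-0.28 ± 0.06) were 2 of 28 G1/S genes to fall, and that list's median was -0.10. They encode a cyclin and a DNA polymerase subunit of the start of replication. NOP56 (-0.23 ± 0.05) and NOLC1 (-0.28 ± 0.07), which serve ribosome assembly, were 2 of 19 MYC and nucleolar genes. CHORDC1, an HSP90 partner, was the 1 called gene of 21 heat shock genes (-0.34 ± 0.08, adjusted p = 0.0249, edgeR). Of these 5 genes, NOLC1 lost its call in all 6 fits without 1 library, CCNE2 and CHORDC1 in 5, POLA1 in 4 and NOP56 in 2 (adjusted p up to 0.234). ZC3H11A, an mRNA export protein, fell by 0.58 ± 0.10 (adjusted p = 0.00102), and the gene overlapping it, ZBED6, was at 0.12 ± 0.17. TSPYL2 (-0.57 ± 0.11), a nucleosome assembly protein, also fell. Several called entries are pseudogenes or copies of other genes, NSUN5P1, WASH5P and HERC2P2 among them, and their counts may be shared with those copies. ANKHD1-EIF4EBP3, a readthrough of ANKHD1, fell by 1.12 ± 0.29 while ANKHD1 was at 0.00 ± 0.13. The ANKHD1-EIF4EBP3 call was lost without any 1 library (adjusted p of 0.133 to 0.192, edgeR).

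**Figure D4:**
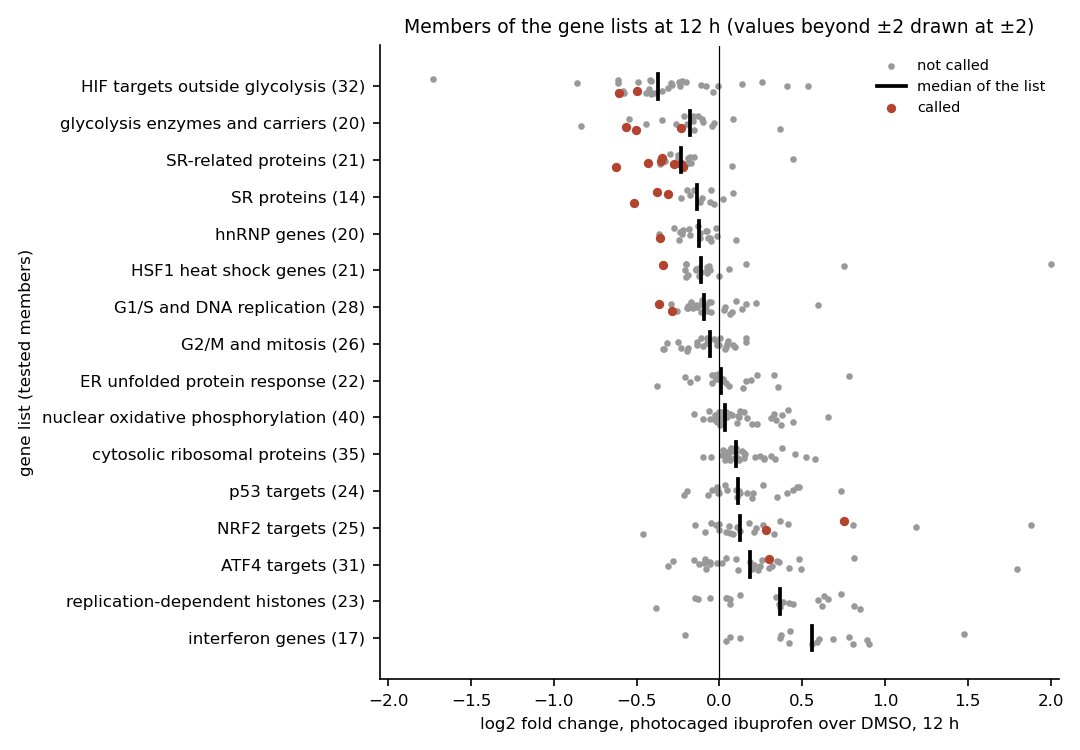
Log2 fold change at 12 h (horizontal axis) of every tested member of 16 gene lists, red where called and grey where not, values beyond -2 or 2 being drawn at that edge, with a black bar at each list's median. The HIF median lies at -0.37 and the glycolysis median at -0.18, the NRF2 median lies at 0.12 and the ATF4 median at 0.19, and the histone and interferon medians lie at 0.36 and 0.56 with no member called.

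Many pathways held no called gene. These were the tRNA synthetases (20 tested), the unfolded protein response (22), p53 targets (24), NF-kB targets (12), immediate early genes (25), cholesterol synthesis (25), nuclear oxidative phosphorylation (40), the proteasome (31) and apoptosis regulators (22). Their medians ran from -0.09 for NF-kB targets to 0.11 for p53 targets. Only 0.677% of all tested genes were called, so 0 calls in a list of 12 to 40 genes does not set it apart. PTGS1 and PTGS2, the drug's own targets, were scarcely expressed, at 0.305 to 1.05 CPM against 0.217 to 0.949 CPM and at 0.909 to 1.98 CPM against 0.681 to 2.00 CPM. GUSB, the glucuronidase that can split glucuronides, was at 34.5, 35.0 and 39.9 CPM against 37.3, 35.8 and 39.2 CPM. Histone genes (median 0.36) and interferon genes (0.56) were mostly above DMSO, and none passed. Of their members 10 of 23 and 5 of 17 did not overlap on the higher side, against 10.9% of all tested genes. In a simulation of this comparison with known changes, 56% of genes changed 1.5-fold and 72% of genes changed 2-fold were found. Of the genes given the smallest planted change, whose median fitted size was 0.28 on the log2 scale, 12% were found.

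Among the differences between 12 h and 6 h were 4 genes of amino acid supply. The test of the difference between the times called 9 genes (0.0465%), 8 of them with a lower effect at 12 h (0.0413%) and 1 with a higher (0.00517%). SLC7A11 was at 152, 152 and 152 CPM at 6 h against 95.1, 79.9 and 91.7 CPM with DMSO, and the groups overlapped at 12 h. Its effect was 0.77 ± 0.10 at 6 h and -0.09 ± 0.10 at 12 h, a difference of -0.86 ± 0.14 (adjusted p = 0.00151, edgeR). CTH, which makes cysteine from cystathionine, went from 0.76 ± 0.09 to 0.04 ± 0.09 (difference -0.72 ± 0.13, adjusted p = 0.00417). SLC1A4, a neutral amino acid carrier, went from 0.87 ± 0.09 to 0.18 ± 0.09 (-0.70 ± 0.12, adjusted p = 0.00417). ASNS went from 0.77 ± 0.07 to 0.26 ± 0.07 (-0.51 ± 0.10, adjusted p = 0.0199). The number called was 2 to 10 without 1 library, with 2 without photocaged ibuprofen replicate 2 or DMSO replicate 2 of 6 h. It was 3 with GC and length trends removed. HMOX1 was at 53.3, 68.5 and 57.7 CPM at 6 h against 24.5, 26.9 and 25.6 CPM, an effect of 1.22 ± 0.15, and its difference from 12 h did not pass (-0.47 ± 0.21, adjusted p = 0.505).

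The fallen genes were on the same side at 6 h in smaller size. Of the 112, 106 had negative values at 6 h, with a median of -0.16, against 9917 of the 19352 tested genes. The 12 h contrast that chose them leaves out the 6 h libraries, though these share the fit's filter, scaling and estimate of spread. OGT at 6 h was at 297, 289 and 311 CPM against 438, 400 and 413 CPM (-0.48 ± 0.06), close to its 12 h effect. KDM3A was at 73.5, 74.7 and 79.6 CPM against 91.2, 87.2 and 91.9 CPM (-0.25 ± 0.10). RARB was at 4.03, 2.10 and 2.64 CPM against 6.55, 5.94 and 5.63 CPM (-1.05 ± 0.25). In each of these 3 genes the 6 h groups did not overlap. Of the 19 risen genes 5 had negative values at 6 h, and the median was 0.24. CD109 was one of the 5: at 6 h it overlapped (-0.09 ± 0.24) and 12 h minus 6 h was 1.18 ± 0.33 (adjusted p = 0.402).

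At 18 h the 112 fallen genes lay on both sides of 0, with a median of -0.01 and 59 negative values, against 9580 negative values of all 19352. The HIF targets outside glycolysis had a list median of -0.365 at 18 h and -0.371 at 12 h. For the glycolysis list it was -0.289 at 18 h and -0.18 at 12 h. How far single libraries of 18 h set these medians was not tested. The composition of the libraries also differed from 12 h. Protein-coding genes took 70.4%, 70.5% and 71.0% of the counts with DMSO at 18 h, below the DMSO libraries of 12 h, and 70.1%, 74.7% and 78.0% with photocaged ibuprofen, where the replicates stood apart. Its part in the difference between 18 h and 12 h was not tested. OGT was at 317, 333 and 359 CPM against 343, 324 and 345 CPM, so the groups overlapped, and its effect of -0.01 ± 0.06 differed from that at 12 h by 0.50 ± 0.09 (adjusted p = 0.00538, edgeR). The photocaged level of OGT stayed within 289 to 359 CPM over the 3 times, while the DMSO level went from 456 to 471 CPM at 12 h to 324 to 345 CPM at 18 h. ZRANB2 (0.60 ± 0.11, adjusted p = 0.00538), PNISR (0.60 ± 0.15, adjusted p = 0.0255), KDM3A (0.57 ± 0.14, adjusted p = 0.0272) and SRSF5 (0.42 ± 0.11, adjusted p = 0.0284) differed between 18 h and 12 h in the same direction. HMOX1 was at 30.4, 30.4 and 24.3 CPM against 32.4, 33.0 and 23.5 CPM, and its effect was lower at 18 h by 0.82 ± 0.21 (adjusted p = 0.0289). RARB was still separate at 5.61, 4.27 and 5.07 CPM against 7.82, 9.95 and 19.0 CPM (-1.30 ± 0.24). LDHA overlapped at 618, 444 and 556 CPM against 556, 532 and 1042 CPM, where DMSO replicate 3 stood far above the others, and its difference from 12 h did not pass (0.17 ± 0.19, adjusted p = 0.711).

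Over all genes, 588 effects differed between 18 h and 12 h (3.04%, with 1.2% higher and 1.84% lower at 18 h), 44 of the 112 fallen and 5 of the 19 risen genes among them. The 12 h libraries that chose these genes stand in this difference, so the shares are not independent of the choice. The count was 20 without photocaged ibuprofen replicate 3 of 18 h. It was 43 without DMSO replicate 2 of 12 h, 37 without DMSO replicate 3 of 12 h, and 93 and 49 without photocaged ibuprofen replicates 1 and 3 of 12 h. Without DMSO replicates 1 and 2 of 18 h, left out in turn, it was 222 and 331, without photocaged ibuprofen replicate 2 of 12 h it was 391, and its highest value was 836 without DMSO replicate 1 of 12 h.

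**Figure D5:**
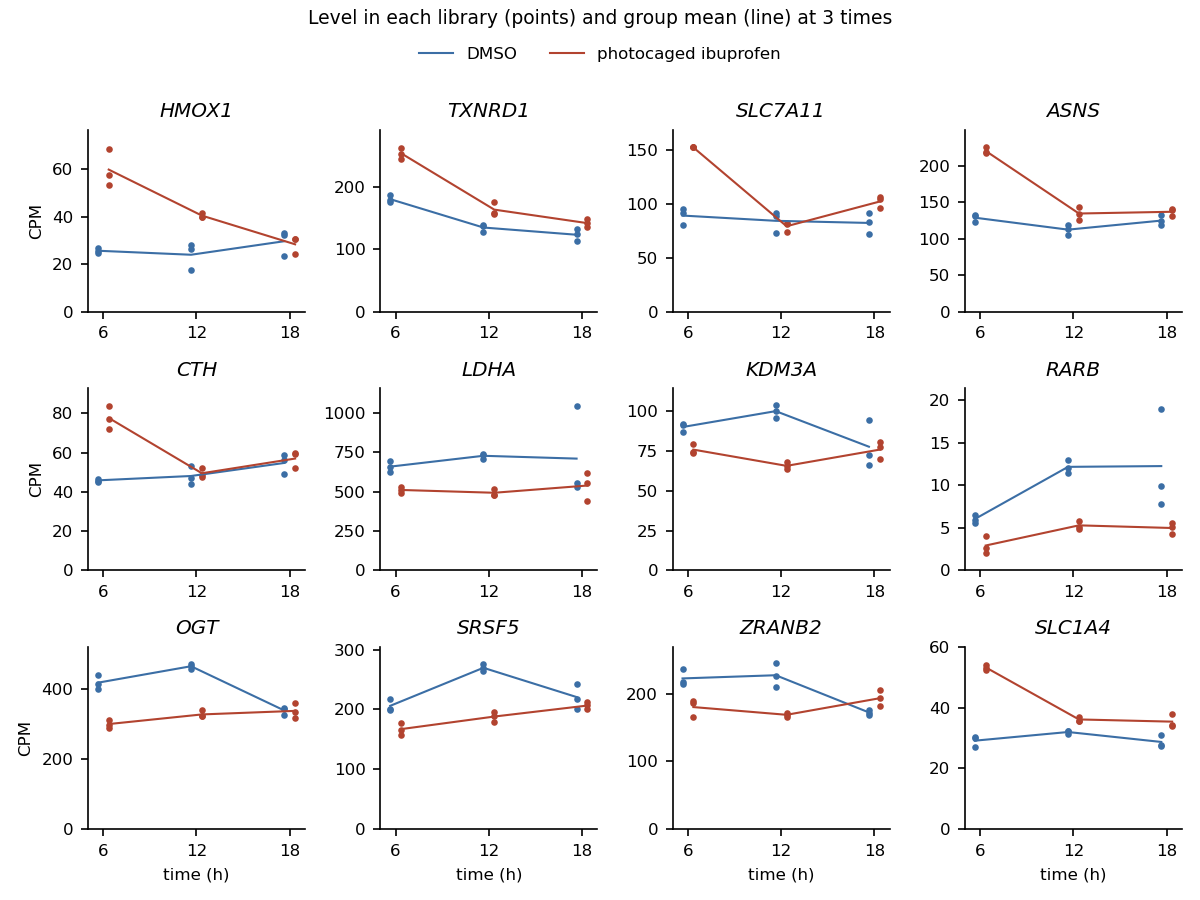
Level of 12 genes in CPM (vertical axes, from 0) in each DMSO (blue) and photocaged ibuprofen (red) library at 6, 12 and 18 h, with lines through the group means of 3 libraries. SLC7A11, ASNS, CTH and SLC1A4 are separate at 6 h, OGT, SRSF5 and KDM3A are separate at 12 h and overlap at 18 h, ZRANB2 is lower with photocaged ibuprofen at 12 h and higher at 18 h, and RARB is separate at all 3 times.

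Ibufenac is ibuprofen without the methyl group next to the carboxyl, and the pair was compared in the photocaged form at 12 h. The labels give 1 loading dose for both precursors. No gene differed by edgeR's quasi-likelihood test (0.0% of 19352), with 583 at an unadjusted p under 0.05, and DESeq2 called 1. Of 14513 genes with a mean of at least 1 CPM, 12582 (86.7%) had a 95% interval of the difference wholly within -1 and 1 on the log2 scale, and the median half-width was 0.29. The lowest p-value was that of ASNS, at 172, 170 and 180 CPM with ibufenac and 144, 134 and 125 CPM with ibuprofen. These did not overlap, and the difference was 0.37 ± 0.07 (interval 0.23 to 0.51, adjusted p = 0.0555). SLC7A11 (0.41 ± 0.10), TXNRD1 (0.25 ± 0.06) and SLC1A4 (0.32 ± 0.09) were higher with ibufenac in value, with adjusted p-values of 0.713 to 0.845. For OGT the difference was 0.01 (interval -0.12 to 0.14) and for LDHA -0.17 (-0.45 to 0.10). For HMOX1 it was 0.37 (0.08 to 0.66) and for RARB -0.61 (-1.10 to -0.11), neither of which passed after adjustment (adjusted p = 1).

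Photocaged ibufenac, the bolus and photocaged ibuprofen share the same DMSO libraries at 12 h, so their values against DMSO are given side by side only. The median of the 112 fallen genes was -0.35 with photocaged ibuprofen, -0.33 with photocaged ibufenac and -0.01 with the ibuprofen bolus. For the 19 risen genes the medians were 0.49, 0.42 and 0.00. In the same order they were -0.371, -0.367 and 0.053 for the HIF targets outside glycolysis, and -0.18, -0.142 and -0.072 for the glycolysis list. OGT was at 325, 339 and 321 CPM with photocaged ibufenac and at 453, 410 and 482 CPM with the bolus, where DMSO was at 456 to 471 CPM. HMOX1 was at 55.7, 55.3 and 46.0 CPM with photocaged ibufenac and 22.2, 20.7 and 19.8 CPM with the bolus. CPT1A was high in all drug arms shown: 41.9, 44.2 and 43.3 CPM with photocaged ibufenac and 48.9, 38.3 and 49.2 CPM with the bolus, against 30.4 to 34.5 CPM with DMSO. CD109 was at 4.88, 6.59 and 7.06 CPM with photocaged ibufenac and 6.08, 7.09 and 5.07 CPM with the bolus, above the 2.99 to 4.19 CPM of DMSO in each library. The bolus dose is not given, so it is not matched to the photocaged dose.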

How the data were processed

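Stranded total RNA libraries with ribosomal RNA depleted were sequenced, per the labels' protocols. The authors deposited expected counts per gene for 58336 genes and 63 libraries, of which 22.6% of values of 1 or more were not whole, and these estimated counts were rounded. No source used here names the aligner, the counter, the counting strand or the build. Library totals were 12.1 to 38.4 M counts, so rare transcripts are measured with the least precision. The deposited FPKM table was not used. Gene coordinates come from the GENCODE release 29 annotation of GRCh38, matched by gene ID, and 57754 genes carry current symbols.

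Counts of all 63 libraries in 21 groups were fitted with edgeR 4.0.16 (R 4.3.3): TMM factors, its expression filter with a minimum count of 10, and quasi-likelihood tests of single contrasts, adjusted by Benjamini-Hochberg at 0.05 over 19352 genes. ± after a log2 fold change is its standard error. The time differences were interaction contrasts. The alternatives were DESeq2 1.42.0, RLE factors, no filter, fewer libraries in the fit, a replicate block, each library left out, and, chosen after seeing the data, removal of GC and length trends. The procedure was tested on simulated data.

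Named genes were the 15 largest changes and 8 lowest p-values in each direction, called or lowest-p list members, a set of chosen genes, and 6 per direction for the time differences. OGA, ATF4, GAPDH, GUSB, NQO1, PPFIA4, RARA, SLC2A3, DMTF1 and the splicing genes other than SRSF5, PNISR and ZRANB2 fall outside that rule and were chosen after their values were seen. Some genes that met the rule are not reported here. The members and lists were chosen with earlier results of these data known. In bulk RNA, fewer cells of a kind and less RNA per cell cannot be told apart.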

Additional observations from a re-analysis of the deposited data

Results flagged for a closer look

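Each value here is a difference, on the log2 scale, between the effects of photocaged ibuprofen over DMSO at 2 times, and each passed edgeR's test of that difference with an adjusted p under 0.05. Between 6 h and 12 h the effect became lower for ASNS (-0.515), CTH (-0.719), SLC1A4 (-0.696), SLC7A11 (-0.862) and MUC19, a mucin gene (-1.849). It became higher for the antisense RNA HSD17B1-AS1 (1.271).

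Between 12 h and 18 h the effect became higher for genes that had fallen at 12 h. These were DDX5 (0.394), HERC2P2 (0.38), KDM3A (0.574), the Hippo kinase gene LATS1 (0.643), OGT (0.501), PNISR (0.6), POLA1 (0.394), SLC16A1 (0.276), SRSF5 (0.424), WASH5P (0.474), ZC3H11A (0.767) and ZRANB2 (0.595). For genes that had risen at 12 h it became lower: CALCB (-0.86), DHRS7B (-0.641), HMOX1 (-0.821), PHGDH (-0.451) and UBL7 (-0.64). The 12 h libraries stand in both the choice of these genes and the difference, so the choice and the difference are not independent.

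Genes not called at 12 h also differed. GMFB (0.585) had a higher effect at 18 h. The histone genes H2BC7 (-1.295) and HIST1H3B (-1.273), HIGD2A (-0.823), HS3ST3A1 (-2.224), the heat shock gene HSPA1B (-1.397), MYC (-0.779) and RABAC1 (-1.77) had a lower one.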

How the results depend on the processing

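Of the 131 genes called at 12 h, the number became 345 with DESeq2, 664 without the low-count filter and 729 with the groups compared alone, and 29 to 78 without 1 library. For 12 h minus 6 h, 9 genes became 18 with DESeq2, 492 without the filter, 17 with the groups compared alone and 3 with GC and length trends removed, and 2 to 10 without 1 library. It was 5 without DMSO replicate 2, photocaged ibuprofen replicate 1 or 3 of 12 h, 4 without DMSO replicate 3 of 12 h, and 2 without replicate 2 of either 6 h group. For 18 h minus 12 h, 588 became 1217 with DESeq2, 1475 without the filter and 226 with GC and length trends removed, and 20 to 836 without 1 library. For photocaged ibufenac against photocaged ibuprofen, 0 became 1 with DESeq2, 80 without the filter, 11 with the groups compared alone, 1 with GC and length trends removed, and 0 to 1 without 1 library, the 1 being without photocaged ibuprofen replicate 1. The cause of these moves was not tested. No named gene reversed its direction.

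The labels give the groups the same replicate numbers. Same-numbered libraries of the 12 h groups had correlations of 0, 0.016 and -0.018 in their deviations, so the numbers do not pair them. With the replicate block 122 genes were called at 12 h, 9 for 12 h minus 6 h, 467 for 18 h minus 12 h and 0 between the compounds.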

Other observations

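Histone genes differed in time more than at 12 h alone. The median effect over the 23 tested replication-dependent histone genes was -0.15 at 6 h, 0.36 at 12 h and -0.67 at 18 h on the log2 scale, and 12 of them passed edgeR's test of 18 h minus 12 h, which called 3.04% of all genes. Most histone transcripts lack a poly(A) tail and are measured here because the libraries were made from total RNA.

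Cytosolic ribosomal protein genes, of which 35 were tested, had a median of 0.10 at 12 h, 0.09 at 6 h and -0.17 at 18 h. At 12 h 20 of them did not overlap on the higher side, against 10.9% of all tested genes, and none was called. Of the 131 called genes, 59 overlap another tested gene, 40 of them on the opposite strand, and reads of such pairs cannot be told apart where the counting strand is not given.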
